A study of Mus musculus with 40 samples.

Results

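The hepatic expression of 10 genes that encode enzymes of the methionine cycle and of sulfur amino acid catabolism was examined in mice given TCDD, that is, 2,3,7,8-tetrachlorodibenzo-p-dioxin. The genes, chosen by symbol, were Mat1a, Mat2a, Gnmt, Pemt, Ahcy, Bhmt, Cbs, Cth, Cdo1 and Csad, and each matched 1 identifier among the 55359 genes counted. All 10 were among the 15373 genes that passed the filter on low counts. Liver RNA came from 40 male C57BL/6 mice, for which the labels state no genetic modification, in 8 groups of 5. One group received sesame oil vehicle, and the other 7 received TCDD in sesame oil at 0.03, 0.1 or 0.3, at 1 or 3, or at 10 or 30 μg/kg. Every mouse was gavaged at intervals of 4 days over 28 days, with a labelled age of 30 days at the start and 58 days at the end, and the tissue is whole liver rather than a purified cell type.

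Methionine is activated in the liver to S-adenosylmethionine (SAM), the donor of methyl groups for most methyltransferases. Its use leaves S-adenosylhomocysteine, which is hydrolyzed to homocysteine. Homocysteine is either remethylated to methionine or passed through transsulfuration to cysteine, which feeds glutathione synthesis or is oxidized to taurine, the amino acid used to conjugate bile acids. TCDD activates AhR, the aryl hydrocarbon receptor, which is a transcription factor switched on by its ligands. It binds dioxin response elements whose core is GCGTG.

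Levels are given as CPM, the counts of a gene per 1000000 counts of its library, on library sizes scaled with edgeR's trimmed mean (TMM), with SD between mice and n = 5 per group. A gene was called when edgeR's quasi-likelihood test gave an adjusted p under 0.05 over all genes tested together with a change of 1.5-fold or more. The 7 comparisons with vehicle share the same 5 vehicle mice. Each library held 15.5 to 21.0 M counts in genes (median 17.5 M). The library of replicate 1 at 30 μg/kg stood apart from the other 4 of its group, with a score of 81.7 on the first principal component of all genes tested against 129 to 147, so the fold changes of the 10 genes at that dose are also given without it, as are those of other genes where it moves the value by over 1.5 times.

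In whole liver, fewer cells of a type and less RNA per cell cannot be told apart. Of 5 hepatocyte markers tested (1 of the 6 listed, Tf, matched no symbol), 4 were called lower at 30 μg/kg. These were Alb (log2 fold change -1.27), Ttr (-1.54), Apoa1 (-3.20) and Apoa2 (-2.41). The exception was Hnf4a, with a log2 fold change of -0.36, or 0.12 with libraries scaled to their totals alone. The summed level of the 5 ran from 98408 to 119805 CPM in vehicle mice, from 61082 to 101911 CPM at 10 μg/kg and from 27656 to 59908 CPM at 30 μg/kg. All 6 macrophage markers were called higher, with a summed level of 154 to 215 CPM in vehicle mice and 524 to 1359 CPM at 30 μg/kg. Among markers of the other cell types, 5 of 6 for stellate cells and fibroblasts, 4 of 6 for endothelial cells, 4 of 5 for cholangiocytes and 5 of 6 for lymphocytes were called higher, and 1 cholangiocyte marker, Sox9, was called lower (Cftr was not tested). The summed level of the stellate list was 75.2 to 174 CPM in vehicle mice and 413 to 980.3 CPM at 30 μg/kg, that of the endothelial list 135 to 182 and 242 to 328 CPM, that of the cholangiocyte list 37.2 to 48.4 and 67.5 to 333 CPM, and that of the lymphocyte list 3.79 to 6.02 and 4.99 to 14.0 CPM. No tested marker was at 0 counts in every library of either group. Over all genes tested, 23.2% were called higher and 18.9% lower at 30 μg/kg. The part of these markers in the results that follow was not tested.

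The bases before the start sites of the genes were searched for GCGTG on both strands, because TCDD acts through AhR. RefSeq entries (GRCm38.p6) were found for 7 of the 10 genes, namely Ahcy, Mat2a, Pemt, Bhmt, Csad, Cbs and Gnmt, but not for Mat1a, Cth and Cdo1. The core lay within the 250 bases before the start in 3 of these 7 genes, Gnmt, Ahcy and Mat2a. Counted by entry, it was in 3 of the 9 entries of these genes and in 28.2% of all 32851 promoter entries searched. The following stretches are shown for the 3 genes with a match and for Csad, which had none and was the member called at the lowest dose. They are written 5′ to 3′ along the gene, with GCGTG or its reverse complement CACGC in capitals. All 4 genes lie on the minus strand, and the coordinates are chr17:46729166-46729415 for Gnmt, chr2:155074498-155074747 for Ahcy, chr6:72439557-72439806 for Mat2a and chr15:102205053-102205302 for the upstream of the 2 listed starts of Csad. The bases checked after this Csad start were not found in an annotated Csad transcript, so it may not be a start used by the gene. Those after the other listed start (chr15:102189044-102189293) were found, and the stretch before it had no match either.
Gnmt: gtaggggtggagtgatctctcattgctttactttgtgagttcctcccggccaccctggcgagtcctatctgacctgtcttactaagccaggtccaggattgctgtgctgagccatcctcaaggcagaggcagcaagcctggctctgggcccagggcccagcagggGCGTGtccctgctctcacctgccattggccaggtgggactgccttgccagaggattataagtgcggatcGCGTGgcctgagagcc
Ahcy: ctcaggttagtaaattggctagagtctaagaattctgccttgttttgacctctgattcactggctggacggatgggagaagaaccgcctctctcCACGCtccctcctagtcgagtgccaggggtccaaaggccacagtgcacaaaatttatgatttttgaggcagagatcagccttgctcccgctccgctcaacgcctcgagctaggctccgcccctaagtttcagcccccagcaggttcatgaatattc
Mat2a: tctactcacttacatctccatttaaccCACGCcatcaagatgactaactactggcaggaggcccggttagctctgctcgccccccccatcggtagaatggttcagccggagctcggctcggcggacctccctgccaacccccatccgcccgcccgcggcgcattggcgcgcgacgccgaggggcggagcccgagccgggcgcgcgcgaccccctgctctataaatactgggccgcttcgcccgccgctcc
Csad: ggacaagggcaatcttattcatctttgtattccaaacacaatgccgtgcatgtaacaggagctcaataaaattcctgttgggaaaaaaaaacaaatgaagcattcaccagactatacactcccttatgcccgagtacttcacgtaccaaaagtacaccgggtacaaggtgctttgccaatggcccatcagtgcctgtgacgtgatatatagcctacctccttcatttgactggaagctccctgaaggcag
In Gnmt the core occurred at 2 positions, -85 and -16 from the start, both in the direction of the gene. In Ahcy it began at -156 and in Mat2a at -223, both on the opposite strand. Gnmt and Ahcy fell at 30 μg/kg, Mat2a was not called, and Csad fell from 1 μg/kg without a match in this stretch. The antioxidant response element core TGACNNNGC, searched in the same way and with no overlap with GCGTG required, was in 10.2% of all entries and in none of the 9 entries of the 7 genes. A match describes the letters in the window and is not a measured binding site.

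All calls among the 10 genes were decreases, and members other than Csad and Mat1a were called at the highest dose only. No member was called at 0.03, 0.1 or 0.3 μg/kg, where 0%, 0.013% and 0.065% of all genes tested were called lower, DESeq2 and limma also called 0, and 0 members had an unadjusted p under 0.05. Csad alone was called at 1 μg/kg (0.637% of all genes lower), Mat1a and Csad at 3 μg/kg (2.22%) and Csad alone at 10 μg/kg (8.13%). The highest dose gave 8 of the 10 called lower, all but Mat2a and Cth, against 18.9% of all genes. The median log2 fold change of the 10 genes at 30 μg/kg was -1.56, compared with 0.03 over all genes tested and -1.54 over the 5 hepatocyte markers. Without replicate 1 at 30 μg/kg, the same 8 genes were called.

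The step from 10 to 30 μg/kg, which does not involve the vehicle mice, gave 7 calls among the 10 genes, all lower, against 10.6% of all genes tested. These were Mat1a, Gnmt, Pemt, Ahcy, Bhmt, Cbs and Cdo1, and the median log2 change of the 10 was -0.93 beside 0.02 over all genes. In the libraries with title numbers up to 27 alone, which hold 2 mice at each of these doses, Ahcy was the 1 member called. With libraries scaled to their totals alone the step also gave 7 calls, but Pemt (-0.45) was not among them and Mat2a was called higher. A linear slope over the ordered dose steps passed an adjusted p of 0.05 downward for 8 members and for 26.1% of all genes. The steepest slope was that of Csad (-0.36 ± 0.04 log2 units per dose step, SE, edgeR adjusted p = 2.77e-09), and the slopes of Mat2a (0.02 ± 0.01, edgeR adjusted p = 0.272) and Cth (0.04 ± 0.02, edgeR adjusted p = 0.0727) did not pass.

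**Figure D1:**
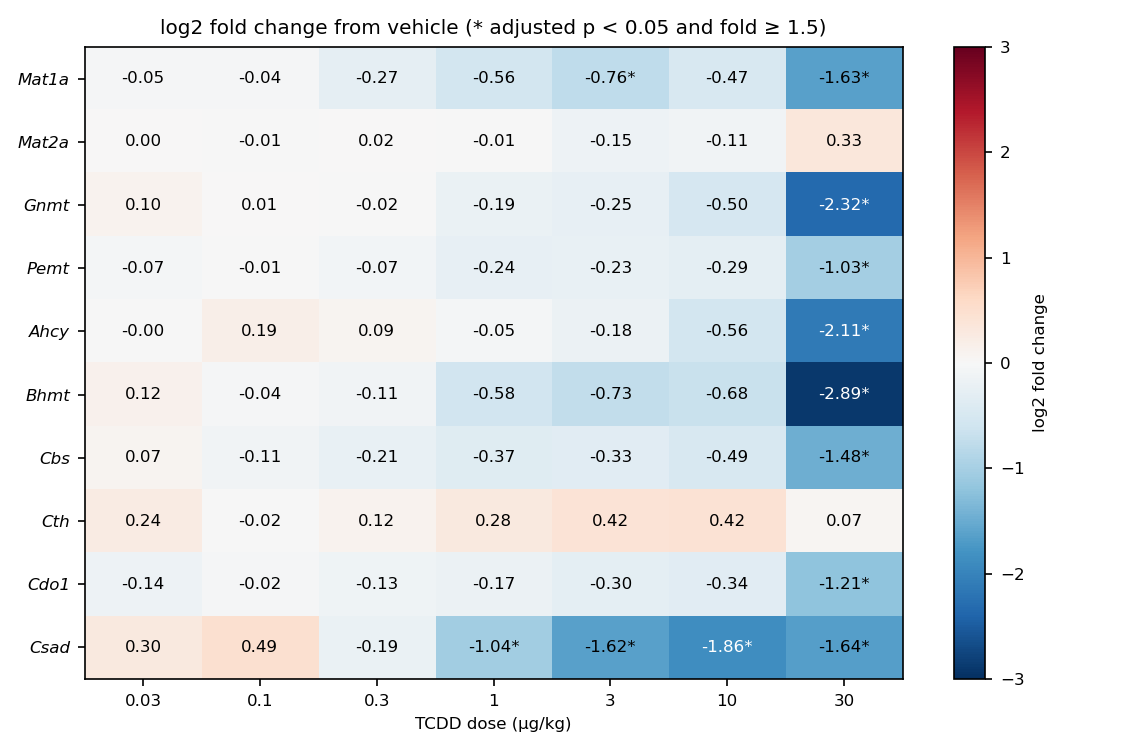
The heatmap gives the log2 fold change from vehicle (color, -3 to 3) for the 10 enzymes (rows) at the 7 TCDD doses in μg/kg (columns), with an asterisk where a gene was called. The 8 called values in the 30 μg/kg column run from -1.03 for Pemt to -2.89 for Bhmt, and only the Csad row is marked at each dose from 1 μg/kg up.

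SAM is made in adult hepatocytes by the enzyme whose catalytic subunit is encoded by Mat1a (chromosome 14, 41105035 to 41124412, GRCm38), and in most other tissues by that encoded by Mat2a (chromosome 6, 72432799 to 72439558). Mat1a stood at 2408, 2933, 2088, 2542 and 3579.6 CPM in the 5 vehicle mice. It stood at 1731, 1674, 1757, 2316 and 2278 CPM at 10 μg/kg, and at 1626, 700.1, 660.0, 496 and 884 CPM at 30 μg/kg. All mice at 30 μg/kg were below every vehicle mouse and every mouse at 10 μg/kg, with replicate 1 the highest of its group. The log2 fold change from vehicle was -1.63 ± 0.21 (SE, edgeR adjusted p = 3.29e-08), or -1.99 without replicate 1. Mat1a was also called at 3 μg/kg, where the 5 mice had 1378, 1922, 1407, 1664 and 1656 CPM and again none reached the lowest vehicle mouse. That change of -0.76 ± 0.21 (edgeR adjusted p = 0.0151) was not called without vehicle replicate 5 (-0.63, adjusted p = 0.0621). At 10 μg/kg the groups overlapped and the change was -0.47 ± 0.21 (edgeR adjusted p = 0.081).

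Mat2a was measured at 82.2, 73.6, 65.8, 72.5 and 77.6 CPM in vehicle mice and at 61.0, 118, 119, 93.6 and 76.3 CPM at 30 μg/kg. The groups overlapped, and the lowest Mat2a value of the treated group was in replicate 1, the mouse with the highest Mat1a. The log2 difference at 30 μg/kg was 0.33 (95% interval 0.09 to 0.57, edgeR adjusted p = 0.0157), a fold change of 1.26 that did not reach 1.5, and it was 0.45 without replicate 1. Scaling to library totals alone moved the median of all genes at this dose to 0.52, and on that scale Mat2a had a log2 difference of 0.84 and was called higher. At the 6 lower doses Mat2a differed from vehicle by between -0.15 and 0.02 on the log2 scale, with an edgeR adjusted p of 0.501 or more at each.

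The ratio of Mat2a to Mat1a counts within a library does not depend on how libraries are scaled. Its log2 value was -4.87, -5.32, -4.99, -5.13 and -5.53 in the vehicle mice (mean -5.17 ± 0.26, SD). At 30 μg/kg it was -4.74, -2.56, -2.48, -2.41 and -3.53, so each of the 5 mice lay above every vehicle mouse, replicate 1 by the smallest margin. Expressed as counts of Mat1a per count of Mat2a, vehicle mice held 29.3 to 46.1 and mice at 30 μg/kg held 26.6, 5.91, 5.57, 5.30 and 11.6. The mean log2 ratio differed from vehicle by 2.02 at 30 μg/kg, a 4.07-fold shift (exact permutation test, 2-sided, p = 0.00794, the smallest that 5 mice against 5 allow; 0.0278 after adjustment over the 7 doses), and by 2.42 without replicate 1. It differed by 0.56 at 1 μg/kg (adjusted exact p = 0.0556), by 0.60 at 3 μg/kg (adjusted exact p = 0.0278, 5 of 5 mice above every vehicle mouse) and by 0.35 at 10 μg/kg (adjusted exact p = 0.178). The difference at 0.3 μg/kg was 0.27 (adjusted exact p = 0.178), and those at 0.03 and 0.1 μg/kg were 0.06 and 0.03 (adjusted exact p = 0.889 for both).

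**Figure D2:**
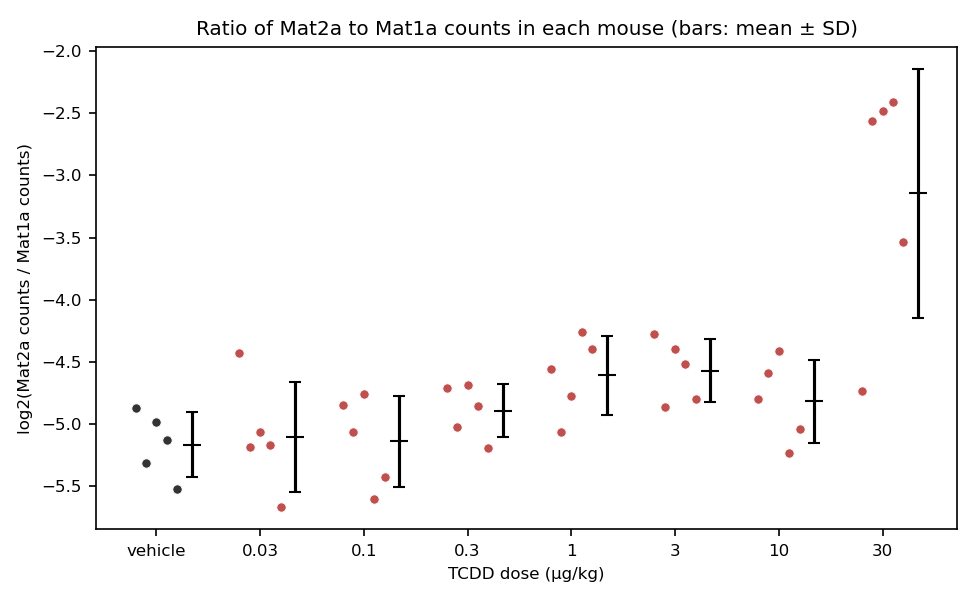
Each point is the log2 ratio of Mat2a to Mat1a counts in 1 mouse, by TCDD dose in μg/kg, with the mean and SD of the 5 mice of each group beside it. The 3 highest points at 30 μg/kg, between -2.56 and -2.41, lie well above the vehicle range of -5.53 to -4.87, and replicate 1 at -4.74 lies just above it.

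Gnmt and Pemt encode major users of hepatic SAM. Gnmt (chromosome 17, 46725664 to 46729168) encodes glycine N-methyltransferase, which methylates glycine and so buffers the SAM supply. Its level was 1445, 1854, 1821, 2044 and 2492 CPM in vehicle mice and 1405, 1174, 1032, 1397 and 1806 CPM at 10 μg/kg. The highest dose gave 943, 172, 202, 256 and 359 CPM. Replicate 1 alone was above 359 CPM, yet all 5 were below every mouse of both other groups. Gnmt fell by 2.32 ± 0.28 on the log2 scale (edgeR adjusted p = 3.85e-09), by 2.97 without replicate 1, and by 1.82 ± 0.27 from 10 to 30 μg/kg (edgeR adjusted p = 2.14e-06). At 10 μg/kg the groups overlapped and the change was -0.50 ± 0.26 (edgeR adjusted p = 0.147).

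Pemt (chromosome 11, 59970614 to 60046489) encodes phosphatidylethanolamine N-methyltransferase, which makes phosphatidylcholine. It stood at 367, 333, 374, 359 and 405 CPM in vehicle mice and at 206, 179, 156, 169 and 191 CPM at 30 μg/kg. The treated mice spread little, with a coefficient of variation of 10.7% beside 82.6% for Gnmt, and replicate 1 was the highest by a small margin. Pemt fell by 1.03 ± 0.13 (edgeR adjusted p = 6.04e-09), the smallest of the 8 called decreases, and by 1.09 without replicate 1. With libraries scaled to their totals alone the change was -0.54 and was not called. At 10 μg/kg its values of 292, 273, 238, 296 and 400.2 CPM overlapped those of vehicle.

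Ahcy (chromosome 2, 155059310 to 155074497) encodes S-adenosylhomocysteine hydrolase, which releases homocysteine and adenosine. Vehicle mice had 1566, 1889, 1716, 2006 and 2434 CPM, mice at 10 μg/kg 1202, 1188, 1001, 1354 and 1764 CPM, and mice at 30 μg/kg 775, 329, 335, 331 and 449 CPM. The highest dose was separated from both other groups, whereas 10 μg/kg and vehicle overlapped through 1 mouse. The log2 fold change was -2.11 ± 0.17 at 30 μg/kg (edgeR adjusted p = 5.9e-13), -2.41 without replicate 1, and -1.55 ± 0.17 for the step from 10 to 30 μg/kg (edgeR adjusted p = 1.32e-08). At 10 μg/kg the change of -0.56 ± 0.17 passed the adjusted p (edgeR, 0.00859) and missed the fold threshold.

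Bhmt (chromosome 13, 93616675 to 93637961) encodes betaine-homocysteine methyltransferase, which returns homocysteine to methionine with a methyl group from betaine. It had the largest decrease of the 10 genes at 30 μg/kg and the widest spread. Vehicle mice held 2209.8, 2061, 1893, 2666 and 2588 CPM, mice at 10 μg/kg 1630.3, 1366, 1057, 1412 and 1665 CPM, and mice at 30 μg/kg 1138, 25.1, 25.7, 39.6 and 316 CPM. In the last group 3 mice were under 40 CPM while replicate 1 lay within the range of the 10 μg/kg group, and the coefficient of variation was 155%. The log2 fold change was -2.89 ± 0.56 (edgeR adjusted p = 3.58e-05) and -4.49 ± 0.47 without replicate 1 (edgeR adjusted p = 1.7e-10). The step from 10 to 30 μg/kg was -2.21 ± 0.55 (edgeR adjusted p = 0.00177) and -3.81 without replicate 1. DESeq2 returned no adjusted p for Bhmt in either comparison. All 5 mice were also below every vehicle mouse at 1, 3 and 10 μg/kg, where the log2 changes of -0.58, -0.73 and -0.68 did not pass (edgeR adjusted p = 0.696, 0.438 and 0.35).

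Transsulfuration was split between its enzymes. Cbs (chromosome 17, 31608894 to 31637238) encodes cystathionine β-synthase, which commits homocysteine to cysteine. It stood at 689, 784, 864, 745 and 898 CPM in vehicle mice, at 537, 537, 485, 568 and 712 CPM at 10 μg/kg and at 469, 181, 234, 275 and 272 CPM at 30 μg/kg. The last group was below every mouse of the other 2, with replicate 1 closest to them. The log2 fold change was -1.48 ± 0.16 at 30 μg/kg (edgeR adjusted p = 4.28e-10), -1.73 without replicate 1, and -0.99 ± 0.16 from 10 to 30 μg/kg (edgeR adjusted p = 5.84e-06). The change at 10 μg/kg was -0.49 ± 0.16 (edgeR adjusted p = 0.0146), below the fold threshold.

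Cth (chromosome 3, 157894248 to 157925077) encodes cystathionine γ-lyase, which releases cysteine in the next step. Its level was 528, 620.4, 484, 659 and 696 CPM in vehicle mice, 756, 666, 899, 857 and 805 CPM at 3 μg/kg and 792, 663, 782, 950.0 and 825 CPM at 10 μg/kg. The mice at 30 μg/kg had 664, 457, 649, 824 and 532 CPM, a range that took in the whole vehicle range. All 5 mice were above the vehicle mean at each dose from 0.3 to 10 μg/kg, and 3 of 5 at 30 μg/kg. The log2 differences of 0.42 ± 0.13 at 3 μg/kg (edgeR adjusted p = 0.0331) and 0.42 ± 0.13 at 10 μg/kg (edgeR adjusted p = 0.0105) were 1.33-fold and 1.34-fold and were not called. For 30 μg/kg the difference was 0.07, with a 95% interval from -0.20 to 0.33 (edgeR adjusted p = 0.695), and 0.04 without replicate 1. With libraries scaled to their totals alone Cth was called higher at 10 μg/kg, and at 30 μg/kg its difference was 0.56 and was not called. The step from 10 to 30 μg/kg was -0.36 ± 0.13 (edgeR adjusted p = 0.0315), again below the fold threshold. The annotation places Gm43314 over Cth on the same strand (13.1 CPM in vehicle mice), and reads in both were counted for neither.

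Cysteine is oxidized by the product of Cdo1 (chromosome 18, 46713193 to 46728395), cysteine dioxygenase, and the sulfinate is decarboxylated on the way to taurine by that of Csad (chromosome 15, 102176999 to 102204724). Cdo1 stood at 1380.3, 1529, 1368, 1461 and 1847 CPM in vehicle mice, at 1349, 1258, 908, 1094 and 1374 CPM at 10 μg/kg and at 951, 477, 598, 468 and 792 CPM at 30 μg/kg. All mice at 30 μg/kg were below every vehicle mouse, and replicate 1 overlapped the lowest mouse at 10 μg/kg. The log2 fold change was -1.21 ± 0.15 (edgeR adjusted p = 5.95e-09), -1.38 without replicate 1, and -0.86 ± 0.15 from 10 to 30 μg/kg (edgeR adjusted p = 1.36e-05).

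Csad was called at each dose from 1 to 30 μg/kg. Vehicle mice held 192, 264, 417, 333 and 288 CPM. The 5 mice at 1 μg/kg held 221, 118, 172, 102 and 114 CPM, those at 3 μg/kg 138, 60.5, 139, 86.9 and 62.1 CPM and those at 10 μg/kg 97.7, 48.7, 40.3, 109 and 117 CPM. At 30 μg/kg the values were 84.5, 77.2, 107, 97.8 and 112 CPM, within the range of the 10 μg/kg group. From 3 μg/kg up, every mouse was below every vehicle mouse, and at 1 μg/kg 1 mouse was not. The log2 fold change was -1.04 ± 0.31 at 1 μg/kg (edgeR adjusted p = 0.0457), -1.62 ± 0.31 at 3 μg/kg (0.000429), -1.86 ± 0.31 at 10 μg/kg (1.3e-05) and -1.64 ± 0.31 at 30 μg/kg (2.36e-05), or -1.61 at 30 μg/kg without replicate 1. From 10 to 30 μg/kg Csad differed by 0.21, with a 95% interval from -0.41 to 0.83 (edgeR adjusted p = 0.644). When 1 mouse of either group was left out, the change at 1 μg/kg ranged from -0.89 to -1.24 with an edgeR adjusted p of 0.0266 to 0.151. Csad was called without vehicle replicate 1 or replicate 1 at 1 μg/kg and was not called without any of the other 4 mice of either group. At the lowest doses Csad differed from vehicle by 0.30 at 0.03 μg/kg and 0.49 at 0.1 μg/kg, both with an edgeR adjusted p of 1. Csad overlaps Zfp740 on the opposite strand, and since the libraries keep no strand, reads in both were counted for neither. Zfp740 was counted at 34.5 CPM in vehicle mice and 32.5 CPM at 30 μg/kg (log2 difference -0.09).

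**Figure D3:**
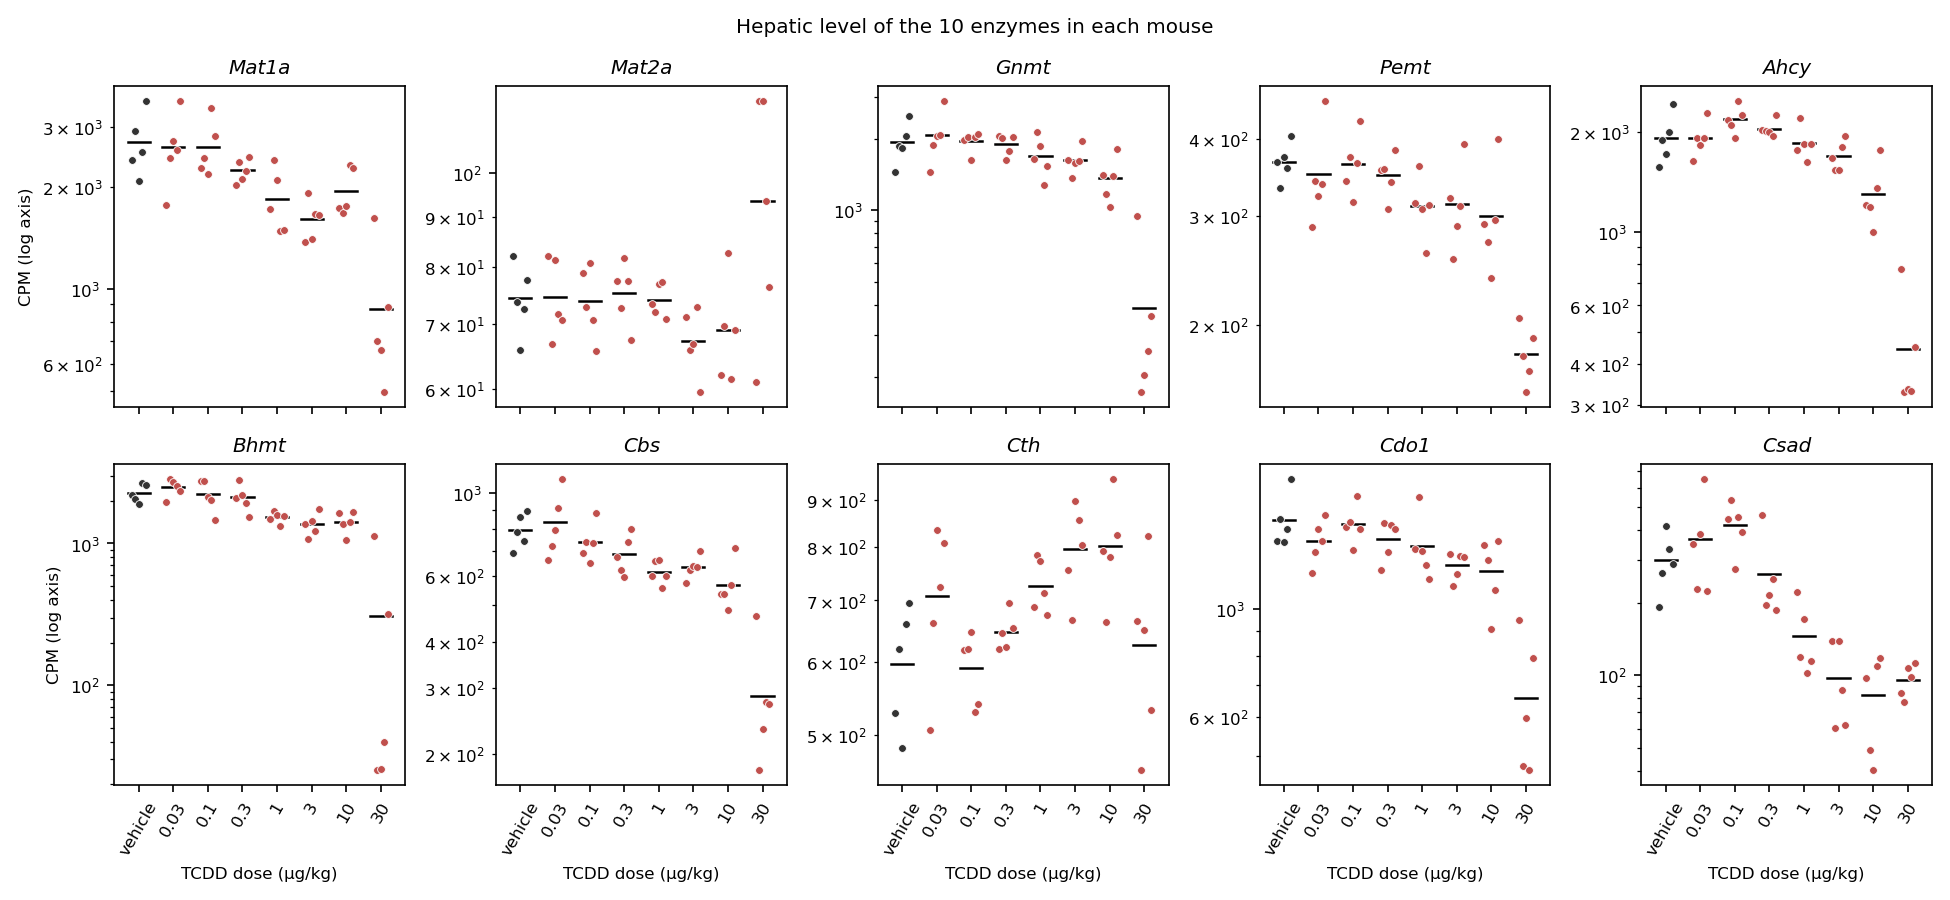
Each panel plots 1 gene, with CPM on a log axis that differs between panels, TCDD dose in μg/kg across, 1 point per mouse and a line at the mean of 5 mice. In 7 panels the points drop at 30 μg/kg, in the Csad panel they are already low from 1 to 30 μg/kg, and in the Mat2a and Cth panels the 30 μg/kg points span the vehicle range.

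Counted as mice rather than calls, 2 of the 10 genes (Bhmt and Csad) had all 5 mice at 10 μg/kg below all 5 vehicle mice, as did 10.1% of all genes tested. For 30 μg/kg 8 of the 10 did, against 17.9% of all genes. At the highest dose replicate 1 had the highest level of its group for Mat1a, Gnmt, Pemt, Ahcy, Bhmt, Cbs and Cdo1 and the lowest for Mat2a. The same mouse had the highest summed hepatocyte marker level of its group (59908 CPM beside 27656 to 46518 in the other 4) and the lowest summed macrophage marker level (524 CPM beside 849 to 1359). With libraries scaled to their totals alone, no member changed sign at 30 μg/kg, and 7 of the 10 remained called lower while 10.1% of all genes were.

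Per kilobase of annotated exon, the vehicle level was highest for Gnmt at 1601 ± 316 CPM per kb (SD). It was followed by Cdo1 at 923 ± 119, Mat1a at 781 ± 165, Ahcy at 685 ± 118, Bhmt at 397 ± 58.0, Cth at 214 ± 31.9, Pemt at 175 ± 12.3, Cbs at 106 ± 11.4, Csad at 78.1 ± 21.8 and Mat2a at 16.6 ± 1.36 CPM per kb. Among neighbors in this order, the ranges of the 5 mice overlapped for Cdo1 and Mat1a, Mat1a and Ahcy, Cth and Pemt, and Cbs and Csad, and did not overlap for the others. At 30 μg/kg the order was Cdo1 (399.8 ± 128 CPM per kb), Gnmt (321 ± 265), Mat1a (252 ± 128), Cth (224 ± 50.1), Ahcy (158 ± 68.5), Pemt (85.5 ± 9.14), Bhmt (53.6 ± 83.3), Cbs (38.2 ± 14.6), Csad (25.0 ± 3.82) and Mat2a (20.9 ± 5.68). Ranges of neighbors then overlapped for all pairs but Ahcy and Pemt. The exon lengths are those of all annotated transcripts together and may exceed the transcript that the liver uses.

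Across the 40 libraries, which share their dose groups and differ in depth, the log2 CPM of Gnmt and Ahcy had a Pearson r of 0.98, and 0.93 once each dose mean was subtracted. Mat2a had a negative r with Gnmt (-0.68, and -0.78 within doses) and with Bhmt (-0.70, and -0.75 within doses). The within-dose values include replicate 1 at 30 μg/kg, and r without it was not computed. That library had a log2 CPM of 10.15 for Bhmt, 9.88 for Gnmt, 9.60 for Ahcy and 5.93 for Mat2a. The other mice of its group had 4.66 to 8.30, 7.43 to 8.49, 8.36 to 8.81 and 6.26 to 6.89. Csad had an r of 0.44 to 0.55 with Mat1a, Gnmt, Pemt, Ahcy, Bhmt, Cbs and Cdo1 over all libraries, and of -0.07 to 0.16 with the same genes within doses. Among the 7877 genes with a symbol and a mean of at least 10 CPM, the gene whose log2 CPM was most like that of each member over the 40 libraries was Ahsg for Mat1a (r = 0.94), Ehhadh for Mat2a (0.83), Ebp for Gnmt (0.99), Copz1 for Pemt (0.96) and Marc1 for Ahcy (0.99). It was Aspdh for Bhmt (0.98), Ptms for Cbs (0.97), Aldh1b1 for Cth (0.68), Apoh for Cdo1 (0.96) and Acaa1b for Csad (0.86). These values describe likeness over libraries of which 5 are from the highest dose.

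Of 56 other genes listed for the surrounding pathway, 54 passed the filter on low counts (Aldh1l2 and Ggt1 did not). At 30 μg/kg 8 of the 54 were called higher, where 23.2% of all genes were, and 25 lower, where 18.9% were. The 8 include Slc7a11, which had 0 counts in every vehicle library and so passed the filter only through treated mice. The median log2 fold change of the 54 genes was -0.50 beside 0.03 over all genes. Without replicate 1 the counts were 8 and 26, and with libraries scaled to their totals alone they were 18 (41.6% of all genes on that scale) and 13 (10.1%), with 7 genes changing sign. At 10 μg/kg 5 were called higher (13.6% of all genes) and 10 lower (8.13%).

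The folate cycle supplies methyl groups for remethylation through methionine synthase. Of its 13 tested genes 3 were called higher and 4 lower, where 23.2% and 18.9% of all genes were. On library totals alone 4 were called higher and 3 lower, where 41.6% and 10.1% of all genes were, with 3 genes changing sign. Mthfd2 and Mthfd1l, of the mitochondrial branch, had log2 fold changes of 2.55 ± 0.35 and 2.51 ± 0.38 (edgeR adjusted p = 8.68e-08 and 5.69e-07), from vehicle means of 2.17 and 0.774 CPM. Shmt1, the cytosolic serine hydroxymethyltransferase, fell by 2.24 ± 0.17 (edgeR adjusted p = 7.3e-14), and Ftcd, an enzyme of histidine breakdown that loads folate, fell by 2.20 ± 0.21 (edgeR adjusted p = 2.46e-11). The 5 vehicle mice had 208, 229, 198, 198 and 229 CPM of Shmt1 and the mice at 30 μg/kg 85.9, 30.6, 26.3, 42.0 and 40.2 CPM, with no overlap. Mtr, the cobalamin-dependent methionine synthase, was at 13.2 ± 1.79 CPM in vehicle mice and 13.2 ± 1.75 CPM at 30 μg/kg (log2 difference 0.01, 95% interval up to 0.29 and symmetric about the difference, edgeR adjusted p = 0.974). Mtrr, which reactivates methionine synthase, was called higher (0.91 ± 0.18, edgeR adjusted p = 3.59e-05). Bhmt2 (-0.57 ± 0.13), which remethylates homocysteine with S-methylmethionine, passed the adjusted p but not the fold threshold at 30 μg/kg, and it was called lower at -0.82 without replicate 1.

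None of the 8 genes of choline and betaine supply was called higher and 4 were called lower, where 23.2% and 18.9% of all genes were. The largest falls among the called genes were those of Sardh, sarcosine dehydrogenase (-2.13 ± 0.36, edgeR adjusted p = 3.4e-06), and Slc44a1, a choline transporter (-1.07 ± 0.13, edgeR adjusted p = 1.2e-08). Sardh was at -3.19 without replicate 1. On library totals alone 1 gene of this list was called higher and 1 lower, where 41.6% and 10.1% of all genes were. On that scale Slc44a1 was at -0.57 and not called. Of 10 genes of SAM regulation and salvage, 4 were called lower and none higher, beside the same shares of all genes. Among these Apip, of methionine salvage, fell by 1.01 ± 0.15 (edgeR adjusted p = 3.11e-07) and Adk, adenosine kinase, by 0.83 ± 0.07 (edgeR adjusted p = 4.75e-12). On library totals alone 5 genes of this list were called higher and 0 lower, where 41.6% and 10.1% of all genes were. Apip was then at -0.53 and Adk at -0.34, neither called. Mat2b, the regulatory partner of the Mat2a product, had a difference of 0.24 ± 0.09 (edgeR adjusted p = 0.0307) that did not reach the fold threshold. Of 7 other SAM-dependent methyltransferases, 1 was called higher and 5 lower, where 23.2% and 18.9% of all genes were. On library totals alone the counts were 1 and 3, where 41.6% and 10.1% of all genes were called. The rise was that of Nnmt, nicotinamide N-methyltransferase (0.64 ± 0.18, edgeR adjusted p = 0.00311). Gamt, which makes creatine, fell by 2.00 ± 0.38 (edgeR adjusted p = 2.15e-05), and by 2.96 without replicate 1. Inmt, indolethylamine N-methyltransferase, was at 899, 890.2, 1073, 1021 and 1126 CPM in vehicle mice, at 218, 199, 100.1, 178 and 216 CPM at 10 μg/kg and at 62.8, 0.832, 1.26, 0.198 and 7.38 CPM at 30 μg/kg. The 3 groups did not overlap, and the log2 fold change of Inmt at 30 μg/kg was -6.12 ± 0.72 (edgeR adjusted p = 2.77e-09), or -8.71 without replicate 1.

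Of 9 genes that handle cysteine, sulfide and taurine, 7 were called lower and none higher, where 18.9% and 23.2% of all genes were. On library totals alone 6 of the 9 were called lower and 2 higher, where 10.1% and 41.6% of all genes were. The largest falls were those of Ethe1, the mitochondrial persulfide dioxygenase (-2.53 ± 0.21, edgeR adjusted p = 5.85e-13), and Baat, which conjugates bile acids to taurine (-2.21 ± 0.17, edgeR adjusted p = 1.38e-13). Baat was at 292, 326, 317, 329 and 337 CPM in vehicle mice, 184, 164, 126, 175 and 162 CPM at 10 μg/kg and 135, 44.2, 45.0, 61.3 and 59.95 CPM at 30 μg/kg, with vehicle above both doses.

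In glutathione synthesis and cystine uptake, 4 of 7 tested genes were called higher and 1 lower, where 23.2% and 18.9% of all genes were. The 4 include Slc7a11, which could pass the filter on low counts only through treated mice, so its call adds nothing to that comparison. The median log2 fold change of the list was 0.81. Slc7a11, the cystine transporter, had 0 counts in every vehicle library. It was at 0.672, 0.554, 1.67, 0.765 and 0.556 CPM at 10 μg/kg and at 4.81, 229, 289, 161.3 and 24.8 CPM at 30 μg/kg, and the mean of the last group was at least 755-fold above the floor of 3 counts per vehicle library (0.188 CPM), or at least 938-fold above it without replicate 1. Slc3a2, which forms the transporter with Slc7a11, rose by 2.12 ± 0.13 (edgeR adjusted p = 3.47e-16). Gclc, the catalytic subunit of glutamate-cysteine ligase, was at 585, 581, 579, 462 and 486 CPM in vehicle mice and at 472, 981, 1344, 921 and 1001 CPM at 30 μg/kg. The groups overlapped through replicate 1, and the log2 fold change of Gclc was 0.81 ± 0.18 (edgeR adjusted p = 0.000163), or 0.98 without that mouse. Gclm, its modifier subunit, differed by 0.26 ± 0.08 and was not called. Chac2, which degrades glutathione, was called lower (-0.91 ± 0.27, edgeR adjusted p = 0.00437), with overlapping groups. On library totals alone Chac2 was at -0.42 and not called. The list then gave 5 higher and 0 lower, where 41.6% and 10.1% of all genes were called.

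**Figure D4:**
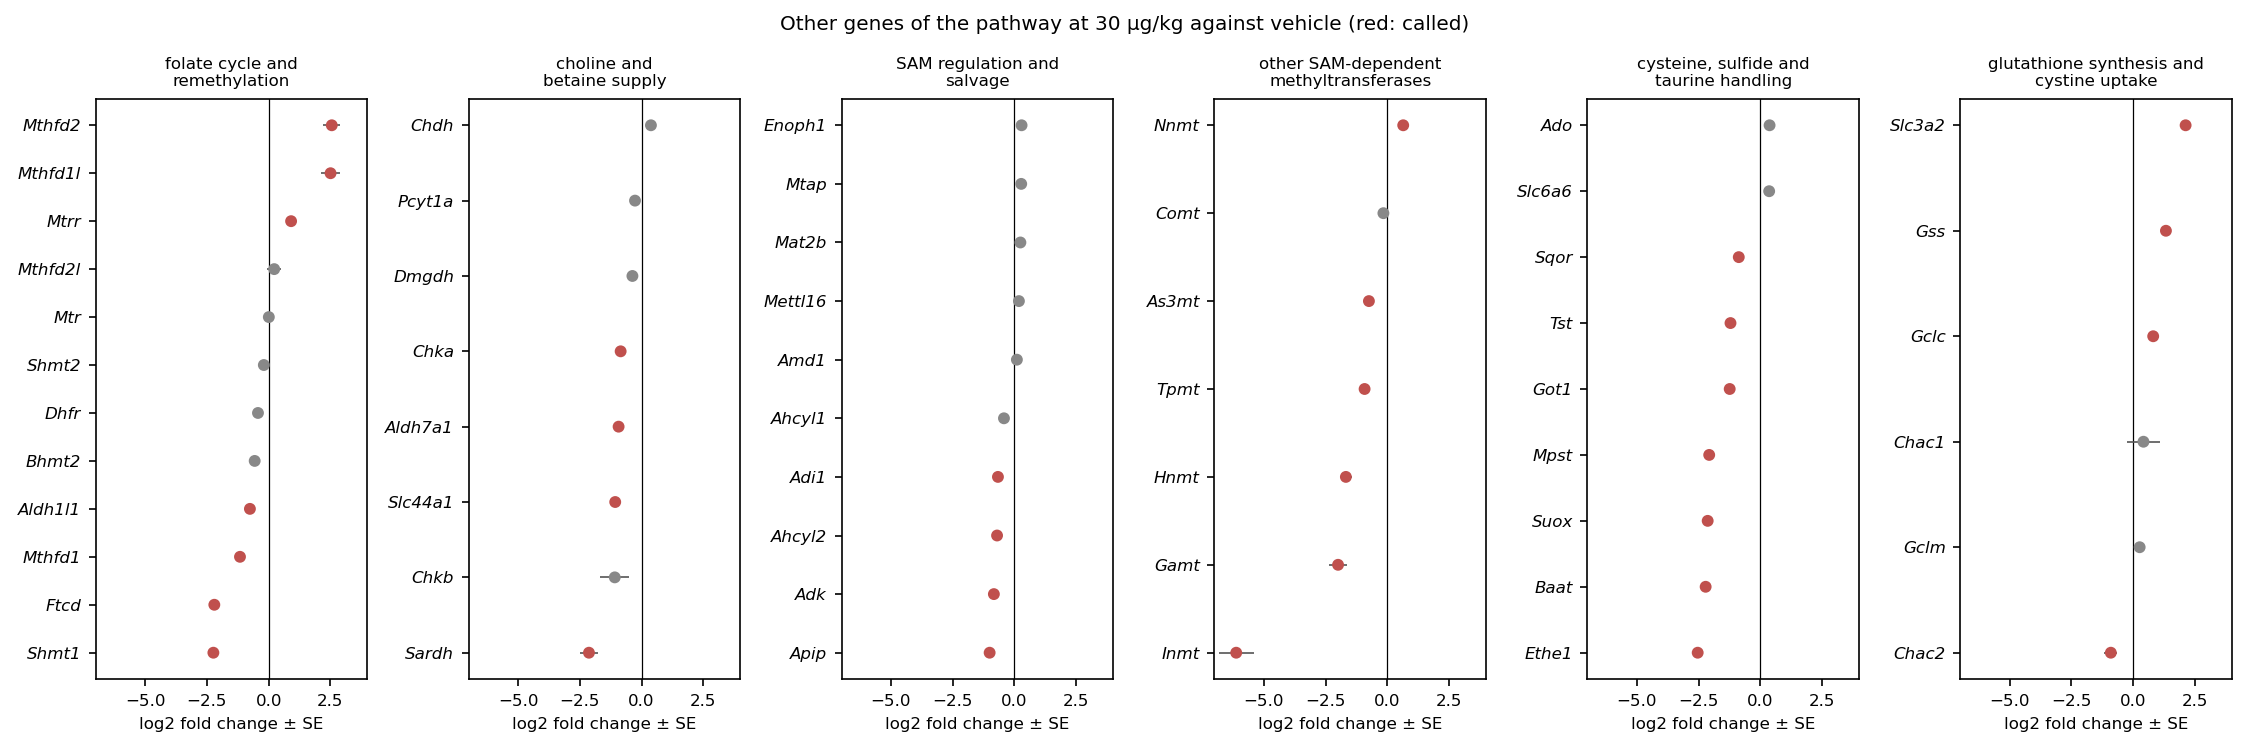
The 6 panels plot the log2 fold change at 30 μg/kg against vehicle with its SE for 52 of the 54 tested genes of the surrounding pathway, sorted within each panel, red where called and gray where not. Slc7a11 is left out because its vehicle libraries were at 0. Most red points lie left of 0 in every panel but the last, where 3 of 4 are to the right.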

How the data were processed

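Liver RNA of 40 mice was sequenced as 150 bp paired-end reads, and groups were taken from the sample labels. For each library the authors deposited counts of reads per gene, not normalized, and the submitters' processing notes name FastQC 0.11.7, Trimmomatic 0.39 and STAR 2.7.3a. These notes name the builds GRCm39 and mm10 without their roles, so gene positions and names come from GENCODE M21 (GRCm38) and not from the files, and 52083 of 55359 identifiers had a symbol. The first of the strand columns held 50.0% to 50.3% of the counts of both, so unstranded counts were used. Reads in genes were 71.3% to 80.8% of all reads, and reads in no gene, in several genes, mapped to several places or unmapped were left out of library sizes.

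Counts were fitted in R 4.3.3 with edgeR 4.0.16 (TMM, filterByExpr with a minimum count of 10, quasi-likelihood, 1 mean per dose over all 40 libraries, 32 residual degrees of freedom), with Benjamini-Hochberg adjustment over 15373 genes within each comparison. CPM uses TMM-scaled library sizes, and log2 CPM a prior count of 2. Counting floors of 3 counts cover counting error only. The authors also deposited normalized log2 values for 23120 genes, which equal the blind variance-stabilizing transformation of DESeq2 1.42.0 within 5.03e-10, and limma 3.58.1 was run on them as they are. Ratios were compared by exact permutation tests in scipy 1.17.1. The scripts were tested on simulated data.

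Alternatives were DESeq2, other size factors, library totals alone, no filter, vehicle and the dose alone, the run of title numbers (run 1, 19 libraries up to number 27; run 2, 21 from number 28) as a covariate or alone, 1 strand column, adjusted p alone, limma, and leaving out each library in turn. Labels give no animal numbers, so replicates were numbered in accession order, and p-values measure the spread between these samples. Over 80 pairs of replicates, chi-square per degree of freedom was at least 11.1, so replicates of a group were not copies of each other. Members and lists were chosen with earlier results of these data known. Text names all 10 members, per further list up to 2 called genes with the largest rise and 2 with the largest fall at 30 μg/kg, and Mtr, Mtrr, Gclc, Gclm, Bhmt2 and Mat2b. One further gene of the lists is neither named nor plotted here.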

Additional observations from a re-analysis of the deposited data

Results flagged for a closer look

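In 88 groups of 5 values (the 10 genes and the Mat2a to Mat1a ratio in 8 groups), 2 samples lay far from the other 4 of their group, and chance alone gives about 1 in 20 groups. Ahcy was at 2248 CPM in replicate 5 at 0.3 μg/kg, above 1951 to 2030 CPM in the other 4 mice. Gnmt was at 1625 CPM in replicate 3 at 0.1 μg/kg, below 1967 to 2096 CPM in the other 4. Neither gene was called at these doses.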

How the results depend on the processing

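The 8 members called at 30 μg/kg became 7 to 9 over 11 alternatives (7 in run 1 alone and by DESeq2, 9 by adjusted p alone). They stayed at 8 with any 1 library left out. The 8 slopes, all downward, became 10 with library totals alone, a count of either direction. That count takes in Mat2a and Cth, whose slopes in the main fit were above 0 (0.02 and 0.04). The counts of 0 at 0.03, 0.1 and 0.3 μg/kg stayed at 0 in each alternative. The 1 call at 1 μg/kg became 0 with library totals alone, with run 1 alone, with run 2 alone and with the strand column, and 0 to 1 when 1 library was left out. The 2 calls at 3 μg/kg became 0 in run 1 alone and 1 in run 2 alone, and 1 to 2 with 1 library left out. By adjusted p alone they became 3, with Cth called higher (0.42). The 1 call at 10 μg/kg became 2 with library totals alone (Cth and Csad), in run 2 alone (Ahcy and Csad) and with vehicle and the dose alone (Bhmt and Csad), 4 by adjusted p alone (Ahcy, Cbs, Cth and Csad), and 1 to 2 with 1 library left out. The 7 calls from 10 to 30 μg/kg became 1 (Ahcy) in run 1 alone, which has 2 mice at each dose, and 9 by adjusted p alone, and with library totals alone the 7 held Mat2a, called higher, in place of Pemt. Bhmt at 30 μg/kg was -1.84 and not called in run 1 alone. Cth at 30 μg/kg, near 0, turned to -0.047 in run 2 alone, to -0.00345 without vehicle replicate 3 and to -0.074 without TCDD 30 replicate 4. The Mat2a to Mat1a log2 ratio difference was 0.54 in run 1 and 0.67 in run 2 at 3 μg/kg, and 1.41 and 2.52 at 30 μg/kg, with 3 mice against 2 unable to give an exact p under 0.2. With 1 mouse left out it ranged from 0.51 to 0.67 at 3 μg/kg and from 1.84 to 2.42 at 30 μg/kg, with an adjusted exact p of 0.0556 throughout. Both doses then had the smallest exact p that their mice allow, 0.0159 for 5 against 4 or 0.00794 for 5 against 5. That adjusted value is set by the design and says nothing about stability. The ratio difference was 0.47 to 0.67 at 1 μg/kg, where it passed without TCDD 1 replicate 2 (adjusted exact p = 0.037), and -0.11 to 0.20 at 0.03 μg/kg and -0.069 to 0.14 at 0.1 μg/kg, where it was also -0.024 on the strand column. The cause of these changes was not tested beyond the number of mice. DESeq2 gave no adjusted p for Bhmt at 30 μg/kg. No paired analysis was possible because the labels give no replicate numbers that groups share.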
